A study of Mus musculus with 30 samples.

Results

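Single muscle fibres in which the mitochondrial calcium uniporter Mcu had been silenced were set against wild type fibres that received no virus, both at the 14-day time point. The fibres were chosen by their sample titles, 4 silenced fibres (AAVshMCU) and 4 wild type fibres, 8 of the 30 fibres of the series, and every gene measured on their arrays was compared. Both groups were fast fibres of the extensor digitorum longus, a hindlimb muscle, of male CD1 mice aged 8 weeks. The silenced fibres came from muscles injected with an adeno-associated virus that carried short interfering oligos against Mcu and the green marker ZsGreen. Beside them stand 4 transfected control fibres of 14 days, whose titles read AAVshLuc while their descriptions give the virus without a cloned insert, a conflict that the sources used here do not settle. The same contrast at 7 days had 3 silenced and 4 wild type fibres.

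What a group stood for was limited by how fibres were taken. Per the labels, fibres were freed with collagenase and picked by hand, injected muscles gave only ZsGreen-positive fibres, and a fibre went to the array only if quantitative PCR on part of its RNA had shown the intended change of Mcu. The rest of the RNA was amplified over 18 cycles and labelled with random primers, so strand was not kept. The animals behind the fibres are not named, and p-values measure the spread between fibres. The silenced fibres and the transfected controls shared 1 slide and 1 scan day, and the wild type fibres lay on another slide read on another day and in other slide columns. Slide, scan day, slide column, injection, virus and silencing construct therefore cannot be told apart between silenced and wild type fibres. The comparison with transfected controls lies within 1 slide, though in different slide columns.

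The uniporter is a channel of the inner mitochondrial membrane through which calcium released during contraction enters the matrix. MCU forms its pore, MICU2 takes part in its gating, and EMRE (Smdt1) links the gate to the pore. In muscle, matrix calcium stimulates pyruvate dehydrogenase and enzymes of the tricarboxylic acid cycle, and uniporter abundance is known to affect muscle size.

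Levels are log2 signals relative to the 75th percentile of the same array, so that 0 is that percentile and 1 unit is a doubling of signal. Differences are silenced minus wild type in log2 units, with the standard error (SE) of limma's fit over all 30 arrays, and a gene passed at a Benjamini-Hochberg adjusted p below 0.05 over 23341 genes. Mcu came first as the check on the labels. Its 60-base probe, listed under the older name Ccdc109a, lies at chr10:58929203-58929262 on the minus strand of mm9, and its 20 codons hold no stop in its first reading frame. It is printed because the check on silencing rests on this stretch alone.
Mcu probe: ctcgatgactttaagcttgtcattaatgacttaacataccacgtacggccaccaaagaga
Mcu stood at -1.12, 0.01, -1.68 and 0.76 in silenced fibres 1 to 4, against 2.81, 2.16, 2.55 and 2.39 in wild type fibres 1 to 4. All 4 silenced fibres were below all 4 wild type fibres, and fibre 4 kept the most signal. Mcu was 7.91-fold lower (-2.98 ± 0.38, adjusted p = 2.3e-05), and it was -3.06 against the transfected controls (adjusted p = 1.97e-05). Since fibres were selected for this change, it is a check and not a finding. Of the 16 measured members of the uniporter list, 1 rose and 1 fell, the fall being Mcu, beside 3.32% of all genes higher and 6.80% lower. Smdt1, Micu2 and Mcub were among the members that did not pass.

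In the whole comparison 775 genes were higher (3.32%) and 1588 lower (6.80%) in silenced fibres. Of these, 344 and 497 differed at least 2-fold, and the median difference over all genes was -0.06. Most of the excess of falls lay in genes counted as having no gene symbol. The 10139 genes without a symbol had 216 higher and 894 lower, and the 13202 with a symbol had 559 higher and 694 lower. The shares of all genes printed beside the gene lists count both kinds. Against the transfected controls 382 genes were higher (1.64%) and 439 lower (1.88%), and transfected controls differed from wild type in 1296 higher (5.55%) and 2447 lower genes (10.5%). These 3 comparisons share fibres, so their counts are given side by side only. Correlations between fibres over all genes were 0.951 to 0.969 within silenced fibres, 0.968 to 0.979 within wild type fibres and 0.938 to 0.966 between the groups. The array's 75th percentile lay at 99.28 to 132.7 signal units in silenced and 114.1 to 125.4 in wild type fibres, and 52 to 55.9% against 52.21 to 59.51% of probes were well above background. Of the 2363 genes that passed, 980 did so whichever fibre was left out, and 1351 passed without wild type fibre 3.

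**Figure D1:**
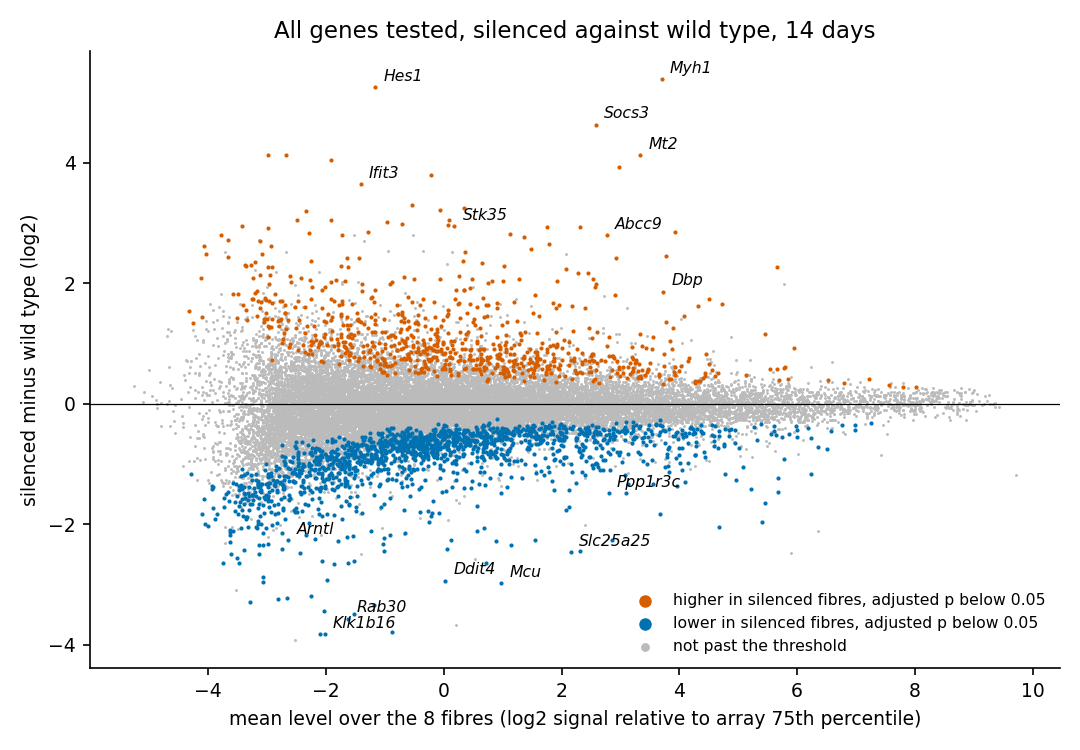
Each point is 1 of 23341 genes, with its mean level over the 8 fibres on the x axis and the silenced minus wild type difference on the y axis, both in log2 units. Genes that passed are coloured, and 344 higher and 497 lower genes differed at least 2-fold.

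The myosins showed that the 8 fibres were not of 1 kind. Myh1, the type IIX myosin, stood at 7.94, 4.62, 7.53 and 5.49 in silenced fibres 1 to 4, against 3.60, 0.44, 0.25 and -0.28 in wild type fibres 1 to 4. Every silenced fibre was above every wild type fibre, by 5.39 ± 1.24 on average (adjusted p = 0.00704), a 41.9-fold difference in signal. The transfected controls reached from -1.08 to 4.77 and overlapped both groups, and silenced minus transfected control was 4.04 (adjusted p = 0.0697). Myh4, the type IIB myosin, was at 5.95, 7.39, 0.38 and 7.47 in silenced fibres and between 7.37 and 7.47 in wild type fibres. Silenced fibre 3 was far below all others, and the difference over all 8 fibres was -2.11 ± 0.83 (adjusted p = 0.107). It passed without silenced fibre 2 (-2.81, adjusted p = 0.034) or fibre 4 (-2.84, adjusted p = 0.0312). Pvalb, the calcium buffer of fast fibres, had the same low fibre, at 6.37 in silenced fibre 3 against 9.64 or more in the other 7 fibres (difference -1.19, adjusted p = 0.117), and passed without silenced fibre 4 (-1.61, adjusted p = 0.0341).

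Other sarcomere and membrane genes were highest in silenced fibres 1 and 3. Myh7b, a slow-type myosin, stood at 3.08, 0.25, 2.84 and -0.15 in silenced and -0.49, -1.20, -1.27 and -0.46 in wild type fibres (difference 2.36 ± 0.65, adjusted p = 0.0219). Myom3, an M-band protein, was at 1.27, -2.05, 3.50 and -0.57 in silenced and -2.58, -1.84, -2.06 and -3.42 in wild type fibres (difference 3.01 ± 0.87, adjusted p = 0.0278). Fibres 1 and 3 were the 2 highest silenced fibres for both genes, and for Myom3 silenced fibre 2 lay within the wild type range. Spint2, a Kunitz-type protease inhibitor, was at 5.32, 2.15, 4.80 and 2.88 in silenced and 2.09, 0.43, 0.53 and 0.38 in wild type fibres (difference 2.93 ± 0.74, adjusted p = 0.0135), with Myh1-rich wild type fibre 1 the highest of its group. The titin gene Ttn rose by 0.92 ± 0.22 (adjusted p = 0.00769), with levels of 6.05 to 6.89 in silenced and 5.13 to 6.17 in wild type fibres, which overlapped. Without silenced fibre 1 the differences of Myh7b, Myom3 and Spint2 were 1.84, 2.77 and 2.42 and none passed (adjusted p = 0.0918, 0.0757 and 0.0568), and Myh7b and Myom3 did not pass without silenced fibre 3 either (1.92 and 2.03). Among the wild type fibres, Myh7b did not pass without fibre 2 or 3, nor Myom3 without fibre 1, 3 or 4 (2.24, 2.22, 2.98, 3.15 and 2.70). With Myh4 and Myh1 levels as covariates 840 genes passed in place of 2363, and Spint2 turned to -0.26 (adjusted p = 0.731).

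**Figure D2:**
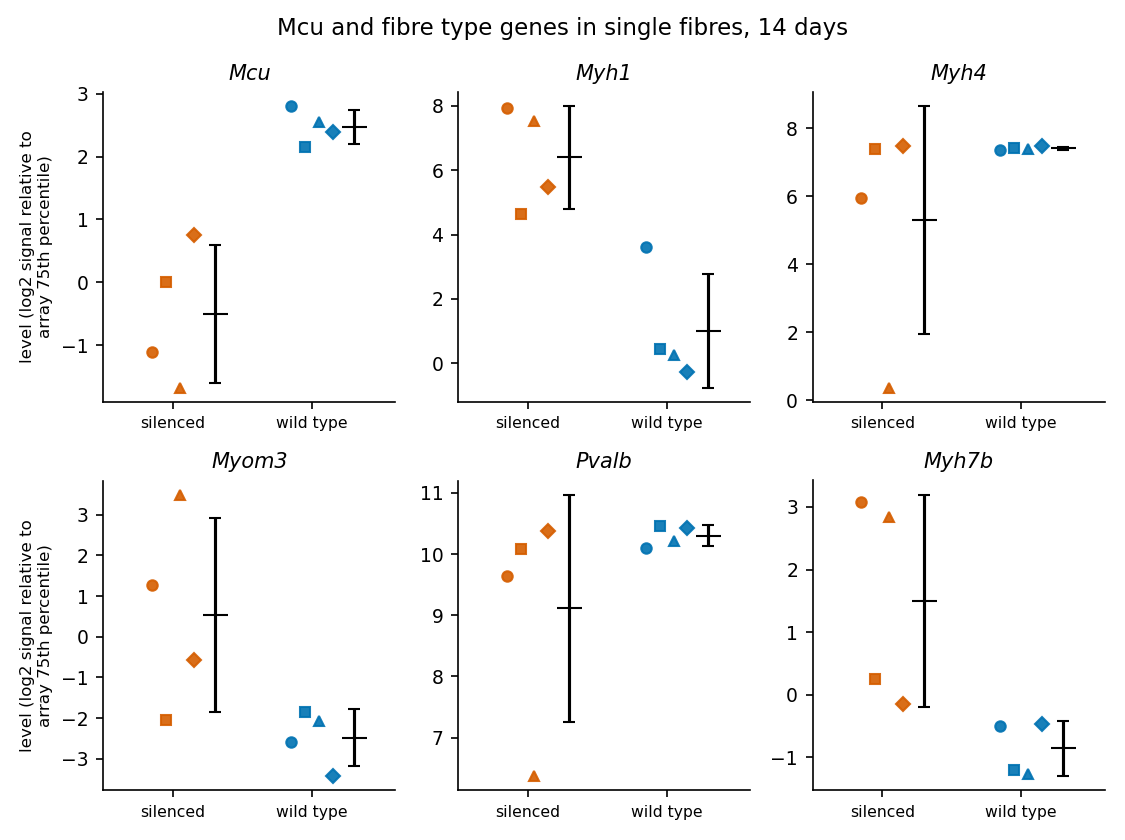
Levels of Mcu and of 5 fibre type genes in single fibres at 14 days, silenced left and wild type right, on the log2 scale relative to the array's 75th percentile. Circle, square, triangle and diamond are fibres 1 to 4 of each group, the bar is the mean with 1 SD (n = 4), and silenced fibre 3 (triangle) is the low point for Myh4 and Pvalb and the high point for Myom3.

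By lists, 1 of 16 measured fast fibre genes (Myh1) and 1 of 11 slow fibre genes (Myh7b) rose and none fell. Over all genes 3.32% were higher and 6.80% lower. The list medians were -0.10 and 0.17. Silenced fibre 3 also stood apart in 2 marker sums, given here as summed signal relative to the 75th percentile. The 3 measured erythroid markers summed to 96.1 in silenced fibre 3, 21.1 in silenced fibre 2 and 16.9 in wild type fibre 1, against 0.9 to 1.5 in the other 5 fibres. The 4 measured B lymphocyte markers summed to 55.8 in silenced fibre 3, against 13.9 to 21.0 in the other 7 fibres. Their part in the results was not tested.

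Among the largest differences from both controls, Abcc9 had the smallest p-value of all genes named here. It encodes SUR2, the regulatory subunit of muscle ATP-sensitive potassium channels. Abcc9 stood at 4.24, 4.16, 3.87 and 4.43 in silenced fibres, against 1.6, 1.78, 1.58 and 1.40 in transfected controls and 1.27, 1.52, 1.11 and 1.59 in wild type fibres. The silenced fibres lay clear of both other groups, 6.98-fold above wild type (2.80 ± 0.17, adjusted p = 9e-11) and 2.58 above the transfected controls (adjusted p = 5.69e-10). Chchd4, the oxidoreductase that traps imported cysteine-rich proteins in the mitochondrial intermembrane space, was at 1.51, 1.56, 1.61 and 1.5 in silenced, 0.00, -0.55, -0.17 and -0.22 in transfected control and -0.21, 0.04, -0.32 and -0.35 in wild type fibres. It rose 3.38-fold (1.76 ± 0.18, adjusted p = 1.74e-06) and was 1.78 above the transfected controls (adjusted p = 1.87e-06), again without overlap. Aldh9a1, an aldehyde dehydrogenase of carnitine synthesis, rose by 1.99 ± 0.42 (adjusted p = 0.00372), although silenced fibre 2 at -1.62 lay within the wild type range of -2.44 to -0.89. Ppp2r2c, a regulatory subunit of protein phosphatase 2A, rose by 1.71 ± 0.42 (adjusted p = 0.0105), and 2 of 4 wild type probes were well above background.

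Falls against both controls included genes of mitochondria and glycogen. Ppp1r3c, which targets protein phosphatase 1 to glycogen, stood at 2.02, 2.33, 1.76 and 2.15 in silenced, 3.74, 3.37, 3.86 and 3.75 in transfected control and 3.28, 4.14, 3.34 and 3.42 in wild type fibres. All silenced fibres were below all others, with differences of -1.48 ± 0.23 against wild type (adjusted p = 0.000215) and -1.61 against transfected controls (adjusted p = 8.66e-05). Mgme1, an exonuclease that maintains mitochondrial DNA, was at -3.85, -2.63, -4.50 and -2.74 in silenced, -0.91, -1.21, -1.12 and -0.92 in transfected control and -1.13, -1.46, -1.77 and -0.64 in wild type fibres, and 1 of 4 silenced probes was well above background. Its difference was -2.18 ± 0.30 against wild type (adjusted p = 5.63e-05) and -2.39 against transfected controls (adjusted p = 2.1e-05). Asb2, a ubiquitin ligase subunit, was at 3.39, 3.26, 3.14 and 3.25 in silenced, 3.98, 4.08, 4.04 and 4.01 in transfected control and 4.09, 4.77, 4.27 and 4.49 in wild type fibres, with differences of -1.14 ± 0.18 against wild type (adjusted p = 0.000342) and -0.77 against transfected controls (adjusted p = 0.0202). For these 3 genes the silenced ranges did not meet those of either control. Slc25a47, a mitochondrial carrier, differed by -2.28 ± 0.48 (adjusted p = 0.00333) with 1 of 4 silenced probes well above background, and by -3.50 against transfected controls (adjusted p = 5.54e-05).

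**Figure D3:**
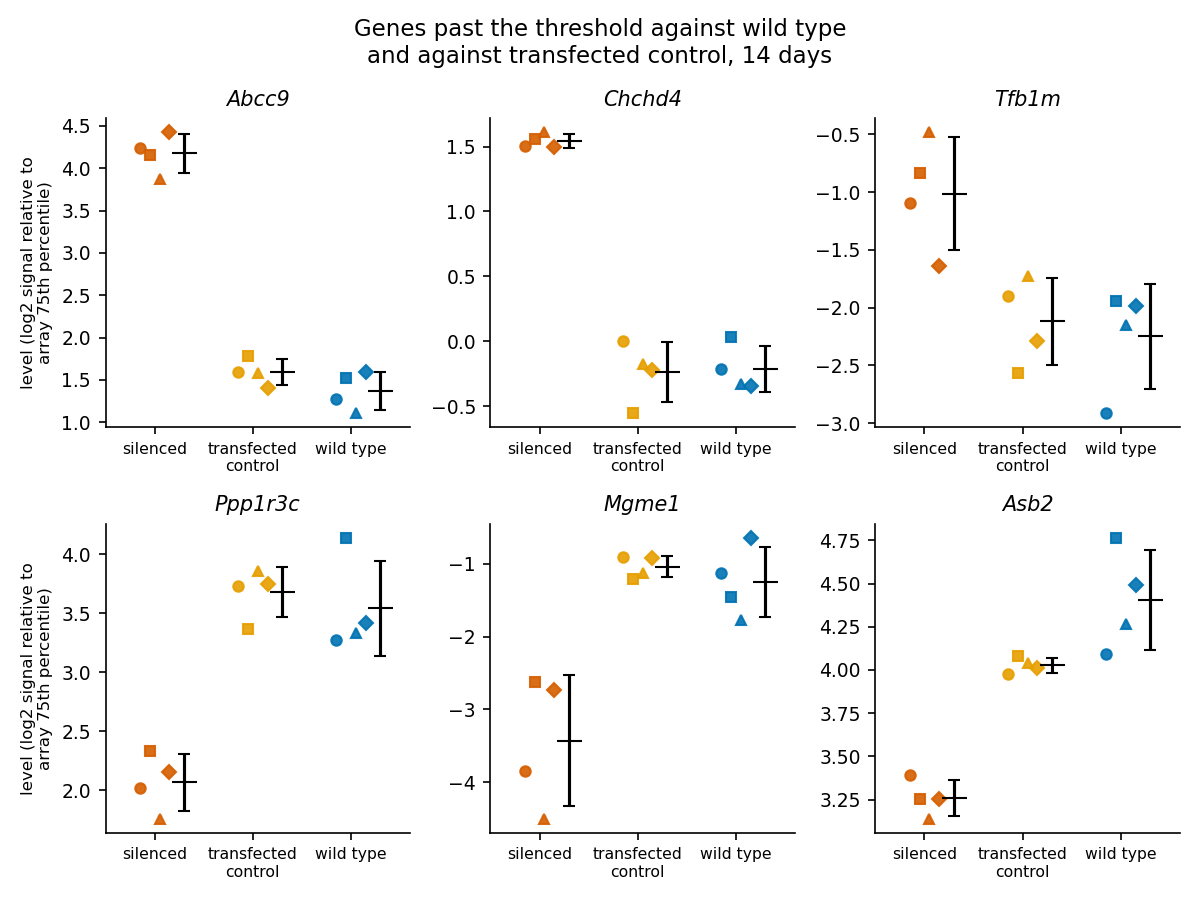
Levels in single fibres at 14 days of 6 genes that passed against both controls, with silenced fibres left, transfected controls in the middle and wild type right, on the log2 scale relative to the array's 75th percentile. Bars are means with 1 SD (n = 4), and for all 6 genes the silenced range is clear of both other ranges.

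Tissue kallikreins, a family of serine proteases, were among the large falls. Klk1b26, a kallikrein-like protease, stood at -3.11, -1.90, -4.68 and -1.44 in silenced and 1.23, 0.79, 1.42 and 0.61 in wild type fibres, and fell 13.9-fold (-3.79 ± 0.63, adjusted p = 0.000448). Its relative Klk1b5 fell by 3.34 (adjusted p = 5.58e-05), and their relative Klk1b16 was above background on no silenced array. These copies are nearly alike in sequence, so the 3 probes may read the same transcripts. Rab30, a small GTPase of the Golgi, was at -3.37, -4.48, -3.67 and -2.10 in silenced fibres, where 1 of 4 probes was well above background, and at 0.41, -0.18, 0.18 and 0.24 in wild type fibres. It differed by -3.57 ± 0.37 (adjusted p = 1.74e-06) and by -2.49 against transfected controls (adjusted p = 0.000195). Tnfsf12, the cytokine TWEAK, fell by 2.28 ± 0.41 (adjusted p = 0.000909), and the mitotic kinase Aurka fell by 2.44 ± 0.50 (adjusted p = 0.00288). Ush1c, the scaffold protein harmonin, fell by 2.93 ± 0.53 (adjusted p = 0.000884) with 1 of 4 silenced probes above background.

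Some genes were above background in only 1 group, so that the difference has a lower bound only, the bright group's mean over the dim group's mean of, for each array, the dimmest signal well above background or the probe's own where that was higher. Hes1, a repressor downstream of Notch, was at 1.02, 1.46, 1.47 and 1.85 in silenced fibres, against -3.61, -2.53, -5.08 and -3.97 in wild type fibres, where no probe was well above background. It was at least 22.1-fold higher (adjusted p = 4.62e-06), and its level in silenced fibres did not differ from that of transfected controls beyond the test (-0.49, adjusted p = 0.705). Gstt3, a glutathione transferase, was at least 5.48-fold higher and the centrosomal gene Lrrcc1 at least 3.94-fold higher (adjusted p = 1.7e-06 and 9.31e-06). In the other direction the lower bounds were 6.32-fold for Klk1b16 and 4.05-fold for the actin-bundling gene Espn, both lower in silenced fibres (adjusted p = 9.71e-05 and 4.91e-05). Espn was at -4.64, -2.54, -3.33 and -2.97 in silenced and -0.48, -0.52, -0.50 and -1.52 in wild type fibres, and its second probe differed by -0.52. Cep250, a centrosomal linker, was lower by at least 4.30-fold (adjusted p = 0.00109), but its second probe differed by 0.39. Of the genes that passed, 181 were above background on no array of the silenced fibres alone, 59 on none of the wild type fibres alone and 2 on none of either.

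The circadian clock was the list with the largest share of members that passed. In the textbook loop, BMAL1 (Arntl) and CLOCK drive the Per and Cry repressors and, through E-boxes, Dbp and Tef, whose products act on D-boxes, while the REV-ERBs Nr1d1 and Nr1d2 repress Arntl. Of 18 measured members 9 rose and 1 fell, beside 3.32% of all genes higher and 6.80% lower. Their median difference was 0.65, against -0.06 over all genes. Dbp stood at 4.74, 4.41, 4.71 and 4.74 in silenced and 2.75, 3.09, 2.53 and 2.80 in wild type fibres. All silenced fibres were higher, 3.62-fold on average (1.86 ± 0.19, adjusted p = 1.7e-06), and by 2.33 against the transfected controls (adjusted p = 7.15e-08). Arntl was at -5.01, -3.48, -3.51 and -3.10 in silenced fibres, well above background on none of their arrays, and at -1.96, -0.95, -1.94 and -1.18 in wild type fibres. Its level was lower by at least 2.45-fold (adjusted p = 0.00013), and by at least 3.01-fold against transfected controls (adjusted p = 3.7e-05).

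The PAR-domain factor Tef was at 4.47, 4.33, 4.26 and 4.37 in silenced and 3.44, 3.25, 3.16 and 3.43 in wild type fibres, a rise of 1.04 ± 0.14 (adjusted p = 3.18e-05). Among the Per and Cry genes, Per3 rose by 1.47 ± 0.32 and Cry2 by 0.91 ± 0.22 (adjusted p = 0.00488 and 0.00795), and every silenced fibre was above every wild type fibre for both. Per2 stood at 0.73, 0.10, 0.44 and -0.13 in silenced and -0.32, -2.31, -1.70 and -1.62 in wild type fibres (difference 1.77 ± 0.48, adjusted p = 0.0184) and did not pass without silenced fibre 1, wild type fibre 2 or wild type fibre 3 (1.63, 1.5 and 1.70). The differences of these 3 genes against transfected controls were 2.38, 1.05 and 1.91 (adjusted p = 5.54e-05, 0.00604 and 0.0239). The repressor Bhlhe40 and Nr1d1 rose against wild type, by 2.06 and 0.69 (adjusted p = 1.37e-05 and 0.00818), yet were -0.77 and -0.66 against transfected controls (adjusted p = 0.092 and 0.0233). Nr1d2 rose by 0.53 (adjusted p = 0.0157) and Hlf, the third PAR factor, by 1.18 (adjusted p = 0.0347), and without silenced fibre 3 neither passed (0.47 and 0.81). Hlf also did not pass without silenced fibre 4 or wild type fibre 1, 3 or 4 (1.16, 1.13, 1.10 and 1.03). Of the 10 that passed, 7 did so whichever fibre was left out, 5 in a fit of the 8 arrays alone and 4 with myosin covariates.

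At 7 days 1 of the 18 clock genes was higher and 5 were lower, beside 5.71% and 5.23% of all genes. Their median was -0.40. Dbp was at 2.24, 2.48 and 2.79 in the 3 silenced fibres of 7 days, against 3.96, 3.86, 3.75 and 4.00 in the 4 wild type fibres of 7 days, a difference of -1.39 (adjusted p = 0.000286). Per3 differed by -2.0 at 7 days (adjusted p = 0.00121) and Arntl by 1.01 (adjusted p = 0.0706). Per2 was above background on no silenced array of 7 days, with a difference bounded at -1.96 or lower (adjusted p = 0.00363). The day 14 minus day 7 difference was 3.24 for Dbp and 3.47 for Per3 (adjusted p = 1.15e-07 and 0.000101). It also passed for Per2 and Arntl (adjusted p = 0.000866 and 0.000345), whose sizes are not read because 1 group was dim. The labels do not give the hour at which animals were killed, so hour and treatment cannot be told apart.

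**Figure D4:**
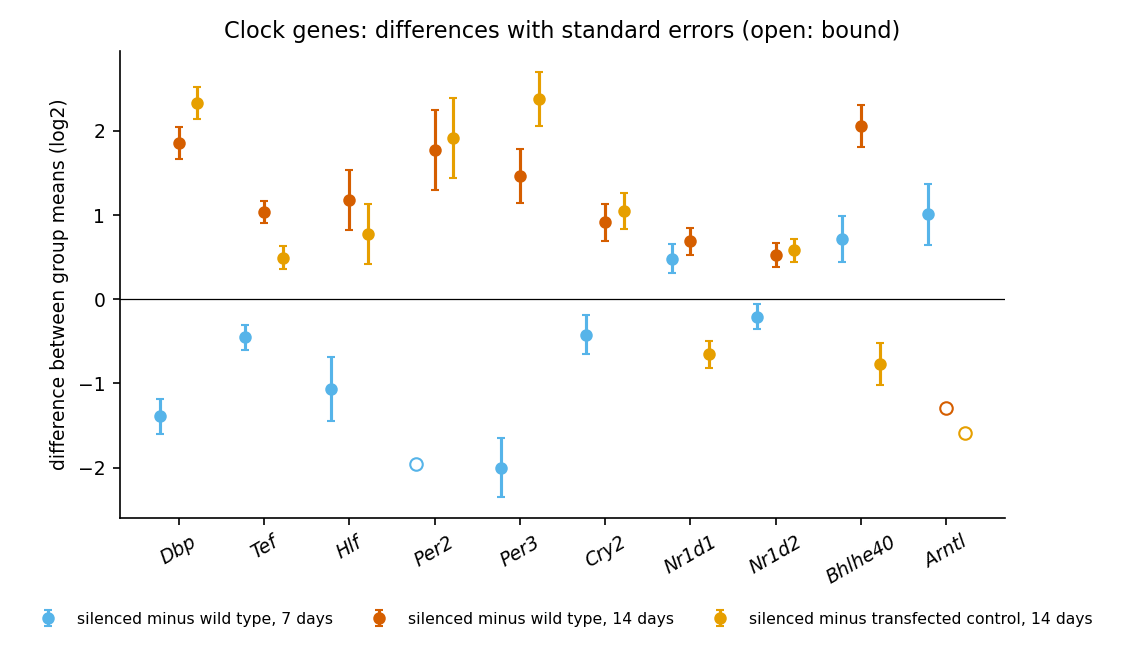
Differences in log2 units with standard errors for the 10 clock genes that passed against wild type at 14 days, with silenced minus wild type at 7 days, silenced minus wild type at 14 days and silenced minus transfected control at 14 days from left to right for each gene. Dbp is at -1.39, 1.86 and 2.33, and open symbols without a bar are bounds, where 1 group was above background on no array (Per2 at 7 days, Arntl at 14 days).

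Promoters of 2 clock genes that passed are shown because they hold the letters of the 2 elements named above. Of the 10 genes, 8 had a window in the RefSeq table of GRCm38.p6, and its 250 bases before the start were searched on both strands. Here and below a gene was counted if any of its windows held the letters, while the percentages count single windows. The E-box letters CACGTG stood in 1 of the 8, Tef, at each of its 2 starts, and in 6.02% of all 32851 windows. The D-box letters TTATGTAA stood in 1 of the 8, Per3, and in 0.819% of all windows. Each run is the 250 bases before the start on the gene's strand, from chr4:151044666-151044915 (minus strand) and from chr15:81802423-81802672 (plus strand, the first of 2 starts), and capitals mark the matches.
Per3 promoter: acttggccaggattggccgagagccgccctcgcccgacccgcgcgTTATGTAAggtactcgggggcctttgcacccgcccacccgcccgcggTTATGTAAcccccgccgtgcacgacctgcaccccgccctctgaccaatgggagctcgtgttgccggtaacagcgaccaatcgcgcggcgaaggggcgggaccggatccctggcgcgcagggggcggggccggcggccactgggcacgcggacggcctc
Tef promoter: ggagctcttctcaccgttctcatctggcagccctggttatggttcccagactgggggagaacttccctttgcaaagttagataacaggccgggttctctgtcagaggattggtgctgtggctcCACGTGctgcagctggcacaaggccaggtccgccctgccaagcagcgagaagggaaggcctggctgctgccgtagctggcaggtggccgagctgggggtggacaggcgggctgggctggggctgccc
A match is a description of these letters and not a bound site.

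Immediate-early genes, many of them transcription factors, are induced within minutes of a stimulus. Of 27 measured members 10 rose and none fell, beside 3.32% of all genes higher and 6.80% lower. Their median difference was 1.41. Fosb, an AP-1 subunit, stood at 4.98, 5.37, 5.79 and 5.22 in silenced and 1.52, 2.95, 1.63 and 3.88 in wild type fibres, without overlap (difference 2.84 ± 0.57, adjusted p = 0.0025). Egr2, a zinc finger factor, was at 2.63, 1.15, 1.62 and 2.47 in silenced and -1.79, -0.33, -1.48 and -1.46 in wild type fibres (difference 3.24 ± 0.75, adjusted p = 0.00711). Klf4 and Junb rose by 3.29 and 2.42, and Egr1 by 1.74 (adjusted p = 0.00608, 0.00227 and 0.00785). Zfp36, which destabilises AU-rich mRNAs, rose by 2.82 (adjusted p = 0.0146) but did not pass without wild type fibre 3 (2.62, adjusted p = 0.0527). Against transfected controls 0 of the 27 were higher and 2 lower, beside 1.64% and 1.88% of all genes, with a median of -0.70. Transfected controls were higher than wild type for 20 of the 27, beside 5.55% of all genes. Of the 10 that passed, 5 did so whichever fibre was left out and 2 with myosin covariates.

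Some metal, oxidative and cytokine response genes passed, and the rises named here were also higher in transfected controls than in wild type. Mt2, a metallothionein that binds zinc and copper, stood at 5.50, 5.07, 4.87 and 6.12 in silenced and 1.33, 2.91, 0.59 and 0.27 in wild type fibres. It rose 17.4-fold without overlap (4.12 ± 0.66, adjusted p = 0.000309), while silenced minus transfected control was -2.10 (adjusted p = 0.0763). Mt1, its neighbour on the chromosome and close relative, rose by 2.45 ± 0.55 (adjusted p = 0.00588). Socs3, the feedback inhibitor of cytokine receptors, was at 4.94, 4.38, 5.03 and 5.21 in silenced and 1.54, 2.59, -1.13 and -1.96 in wild type fibres, a 24.7-fold rise (adjusted p = 0.000423). Transfected controls lay above the silenced fibres for Socs3, between 6.10 and 6.58, though the difference of -1.40 did not pass (adjusted p = 0.337). Its activator Stat3 rose by 0.93 against wild type (adjusted p = 0.0025) and was -1.03 against transfected controls (adjusted p = 0.00197). Osgin1, an oxidative stress gene, rose by 3.93 ± 0.77 and Txnrd1, the cytosolic thioredoxin reductase, by 0.76 ± 0.19 (adjusted p = 0.00186 and 0.0122). Stk35, a nuclear kinase, rose by 2.95 ± 0.24 against wild type and by 0.88 against transfected controls (adjusted p = 2.4e-08 and 0.0368).

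By list, the metallothionein, iron and haem genes had 3 rises and 1 fall among 18 measured, the antioxidant genes 3 rises and 2 falls among 26, and the chemokine and cytokine signalling genes 4 rises and 0 falls among 17, beside 3.32% of all genes higher and 6.80% lower. The fall in the first list was Tmem14c, a porphyrin transporter of the mitochondrial inner membrane, which stood at -0.04, -0.66, -0.77 and -0.49 in silenced and 1.41, 1.82, 1.64 and 1.66 in wild type fibres (difference -2.12 ± 0.19, adjusted p = 2.69e-07). At 7 days Tmem14c differed by 3.11 (adjusted p = 8.72e-10), so the 2 days had opposite signs, and silenced minus transfected control at 14 days was 0.17 (adjusted p = 0.689). Gstm2, a muscle glutathione transferase, fell by 1.19 ± 0.30 (adjusted p = 0.0118). The haem oxygenase gene Hmox1 rose by 1.62 ± 0.49 (adjusted p = 0.0346) but did not pass without silenced fibre 1 or 4 or any 1 wild type fibre, with 1.27 without silenced fibre 4 the lowest.

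The Mt2 promoter is printed because metallothioneins are the textbook targets of metal response elements. The core letters TGCACNC stood in 2 and TGCGCNC in 1 of the 3 genes of this list that passed and had a window, against 10.4% and 12.5% of all windows. The run is chr8:94172368-94172617 of GRCm38.p6 (plus strand, RefSeq), with both forms in capitals on either strand.
Mt2 promoter: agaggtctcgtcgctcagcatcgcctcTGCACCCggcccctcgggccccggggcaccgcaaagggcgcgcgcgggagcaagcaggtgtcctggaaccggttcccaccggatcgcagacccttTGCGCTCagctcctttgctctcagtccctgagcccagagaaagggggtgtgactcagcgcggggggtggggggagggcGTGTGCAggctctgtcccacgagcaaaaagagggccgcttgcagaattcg

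Interferon-stimulated genes, which restrict viruses, rose in 5 of 28 measured members and fell in none, beside 3.32% of all genes higher and 6.80% lower. Their median was 0.30, or 0.24 with dim members at their bound. Ifit3, which binds viral RNA as part of a complex, stood at 0.35, 0.85, -0.05 and 0.49 in silenced fibres, against -1.10, -1.70, -0.88 and -1.21 in transfected controls and -3.45, -3.93, -2.34 and -3.20 in wild type fibres, of which 1 was well above background. The 3 groups did not overlap, and the silenced fibres were 3.64 ± 0.33 above wild type (adjusted p = 2.69e-07) and 1.64 above transfected controls (adjusted p = 0.00571). Its relative Ifit3b rose by 1.49 and the transcription factors Irf1 and Irf9 by 1.93 and 1.77 (adjusted p = 0.0097, 0.004 and 0.00243), and Stat2 was the fifth. Irf1 was -1.85 against transfected controls (adjusted p = 0.0122). At 7 days Ifit3 was 2.52 above wild type (adjusted p = 0.000174), and the difference between days was 1.12 (adjusted p = 0.154). Of 13 interferon-inducible GTPases, Igtp and Irgm2 rose. Neither held whichever fibre was left out, and Igtp was 1.64 with all fibres and 1.34 without silenced fibre 1 (adjusted p = 0.0275 and 0.1). Igtp also did not pass without silenced fibre 2 or any 1 wild type fibre. None of the 18 MHC class I and peptide loading genes passed.

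The Ifit3 promoter carries the largest such difference and holds 2 matches to an interferon response core, GAAA and again GAAA after 2 bases of any kind, which stood in 3 of the 5 genes that passed (Ifit3, Ifit3b and Stat2) and in 2.98% of all windows. It spans chr19:34583279-34583528 of GRCm38.p6 (plus strand, RefSeq), and the capitals mark the matches on the other strand.
Ifit3 promoter: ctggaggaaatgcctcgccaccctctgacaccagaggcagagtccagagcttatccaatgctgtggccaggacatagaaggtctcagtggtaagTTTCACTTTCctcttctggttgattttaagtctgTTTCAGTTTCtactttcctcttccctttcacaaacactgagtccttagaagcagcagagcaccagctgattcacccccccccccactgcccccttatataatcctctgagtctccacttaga

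Matrix calcium stimulates enzymes of pyruvate and citrate oxidation. Of 30 measured pyruvate dehydrogenase and tricarboxylic acid cycle genes, 4 rose and none fell, beside 3.32% of all genes higher. The list's median was 0.23, but 0.11 without silenced fibre 3, 0.41 without silenced fibre 4 and -0.25 with myosin covariates. Sucla2, a subunit of succinyl-CoA ligase, rose by 0.61 ± 0.15 (adjusted p = 0.0108), and Pcx, Pdk1 and Pdp1 were the others, none of which passed whichever fibre was left out. Complex I had 1 rise among 36 measured genes, Ndufs5 by 0.61 ± 0.12 (adjusted p = 0.00144), and complexes II to V had 0 rises and 0 falls among 40 in limma's fit, with medians of 0.11 and 0.14. At 7 days 13 of 36 and 15 of 40 of these genes were higher, against 5.71% of all genes higher and 5.23% lower at 7 days. The day 14 minus day 7 difference passed with a negative sign for 3 of 36 and 1 of 40, beside 4.64% of all genes. It passed with a positive sign for none of them, beside 2.85% of all genes. Among 78 mitochondrial ribosomal proteins Mrps24 alone rose, by 0.95 ± 0.13 (adjusted p = 5.58e-05), and among 83 cytosolic ribosomal proteins Rpl22l1 alone fell. Against transfected controls Mrps24 was 0.10 (adjusted p = 0.719).

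Regulators of mitochondrial biogenesis had 4 rises and 0 falls among 25 measured, beside 3.32% of all genes higher and 6.80% lower. Their median of 0.24 turned to -0.06 with myosin covariates. Ppargc1b, a coactivator of the PGC-1 family, stood at 0.63, 0.29, 0.90 and -0.04 in silenced and -0.27, -1.11, -0.54 and -0.70 in wild type fibres (difference 1.10 ± 0.25, adjusted p = 0.00663). Tfb1m, a mitochondrial ribosomal RNA methyltransferase, was at -1.10, -0.84, -0.48 and -1.64 in silenced, -1.90, -2.57, -1.73 and -2.29 in transfected control and -2.92, -1.95, -2.15 and -1.99 in wild type fibres. All silenced fibres were above all others, by 1.24 ± 0.29 against wild type (adjusted p = 0.00748) and 1.11 against transfected controls (adjusted p = 0.03). Sirt1 and Ppard also passed, but not whichever fibre was left out. Neither Ppargc1b nor Tfb1m passed in a fit of the 8 arrays alone or with myosin covariates. All 26 measured genes of fatty acid uptake and oxidation had a positive difference (median 0.39, against -0.06 over all genes), of which Cpt2 and Acsl1 passed. Neither passed whichever fibre was left out, in a fit of the 8 arrays alone or with myosin covariates. Nor did either pass under all of the background correction and the 4 other scalings or value tables. The median was 0.09 without silenced fibre 3 and 0.72 without silenced fibre 4. Cpt2, the inner-membrane carnitine transferase, rose by 0.76 (adjusted p = 0.0454), but was 0.50 without silenced fibre 3 (adjusted p = 0.187), did not pass without silenced fibre 1 or any 1 wild type fibre, and was -0.05 with myosin covariates (adjusted p = 0.929), under which the list's median was -0.53.

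Slc25a25, a calcium-regulated carrier of ATP-Mg and phosphate in the mitochondrial inner membrane, stood at 1.09, 1.10, 0.59 and 0.96 in silenced and 3.74, 3.79, 3.09 and 2.95 in wild type fibres. It fell 5.50-fold without overlap (-2.46 ± 0.24, adjusted p = 1.08e-06), and silenced minus transfected control was -0.27 (adjusted p = 0.591). Among 28 glycolysis and glycogen genes Hk2, the hexokinase of muscle, rose by 1.11 ± 0.26 (adjusted p = 0.0084) and Ppp1r3c, given above, fell. None of the 28 genes of excitation-contraction coupling passed, and Mef2c alone of 13 calcineurin and NFAT genes rose, by 0.66 ± 0.12 (adjusted p = 0.0011). Lrp4, the agrin receptor of the neuromuscular junction, rose by 1.56 ± 0.34 (adjusted p = 0.00483), alone of 21 genes of its list. Beside these list counts, 3.32% of all genes were higher and 6.80% lower.

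The growth and breakdown lists had small counts each way, beside 3.32% of all genes higher and 6.80% lower. Ddit4, the mTORC1 inhibitor REDD1, stood at -1.26, -2.49, -0.69 and -1.36 in silenced and 1.98, 2.29, 0.73 and 0.95 in wild type fibres, a fall of 2.94 ± 0.63 (adjusted p = 0.00416), and was 0.42 against transfected controls (adjusted p = 0.767). Irs1, which couples insulin and IGF1 receptors to PI3 kinase, was at 2.75, 3.07, 1.95 and 3.81 in silenced and 4.21, 4.38, 4.04 and 4.27 in wild type fibres, a fall of 1.33 ± 0.25 (adjusted p = 0.00115). All silenced fibres were below all wild type fibres for both genes. Fbxo30, a ubiquitin ligase of muscle wasting, rose by 1.88 ± 0.32 and Txnip, a thioredoxin-binding arrestin, by 1.15 ± 0.28 (adjusted p = 0.000589 and 0.00873). With Asb2 and Ddit4, these made 2 rises and 2 falls among 23 genes of the FoxO and atrophy list. The growth list had 2 rises, Pik3r1 among them, and 1 fall (Irs1) among 22, and Pik3r1 was 2.27 with all fibres and 1.79 without silenced fibre 3 (adjusted p = 0.014 and 0.0617).

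Myostatin, activin and BMP signalling had 3 rises and 1 fall among 18 measured genes, beside 3.32% of all genes higher and 6.80% lower. The activin receptors Acvr1b and Acvr2b rose by 0.97 ± 0.23 and 0.71 ± 0.19 (adjusted p = 0.00854 and 0.0198), and Acvr2b did not pass without silenced fibre 1, wild type fibre 2 or wild type fibre 3 (0.65, 0.59 and 0.56). In the autophagy list, with 2 rises and 1 fall among 29, the initiating kinase Ulk1 rose by 0.83 ± 0.16 (adjusted p = 0.00165). Atg7, which activates the ubiquitin-like conjugation step, fell by 1.14 ± 0.24 on its brighter probe (adjusted p = 0.00417) and differed by 0.41 on the other. None of the 30 constitutive proteasome genes passed, and their median was 0.01.

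The integrated stress response list had 1 rise and 4 falls among 24 measured genes, beside 3.32% of all genes higher and 6.80% lower. Its median was -0.20. The median was -0.09 with dim members at their bound, -0.04 with dim spots at a floor or with normexp, -0.11 without silenced fibre 1, -0.12 without silenced fibre 3 and -0.10 without wild type fibre 4. Gdf15, a stress-induced cytokine, stood at -0.65, -0.48, -0.52 and -0.63 in silenced and 0.11, 0.00, 0.32 and 0.21 in wild type fibres, a fall of 0.73 ± 0.13 (adjusted p = 0.000702) without overlap. Pck2, the mitochondrial phosphoenolpyruvate carboxykinase, fell by 0.82 ± 0.18 (adjusted p = 0.00463) with 1 of 4 silenced probes well above background, and Psph and Fgf21 were the other falls. Gdf15 and Pck2 differed from transfected controls by 0.02 and 0.07 (adjusted p = 0.951 and 0.879). The rise was Ddit3, the factor CHOP, by 2.04 ± 0.61 (adjusted p = 0.0333), which did not pass without any 1 fibre other than silenced fibre 2, with 1.84 without silenced fibre 4 the lowest. Dnaja1, a co-chaperone of HSP70, was the only 1 of 23 heat shock genes that passed and fell by 1.31 ± 0.31 (adjusted p = 0.0086).

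The stretch and Z-disc list had 1 rise among 18, Ankrd2, a stretch-responsive ankyrin protein. It stood at 4.46, 1.06, 5.96 and 1.36 in silenced and -0.14, -0.58, 1.48 and 0.37 in wild type fibres, which overlapped (difference 2.93 ± 0.81, adjusted p = 0.0221), with -1.22 against transfected controls (adjusted p = 0.442). It did not pass without silenced fibre 1, silenced fibre 3, wild type fibre 1 or wild type fibre 2 (2.51, 2.01, 2.79 and 2.64). Of the 18, 7 were higher and none lower in transfected controls than in wild type (median 1.37), beside 5.55% and 10.5% of all genes. In silenced fibres 6 were lower and none higher than in transfected controls (median -0.90), beside 1.88% and 1.64% of all genes. The dystrophin complex list had 2 rises and 1 fall among 22, and the ER chaperone list 0 rises and 1 fall among 20. MHC class II had 0 rises and 1 fall among 7. Over all genes 3.32% were higher and 6.80% lower.

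**Figure D5:**
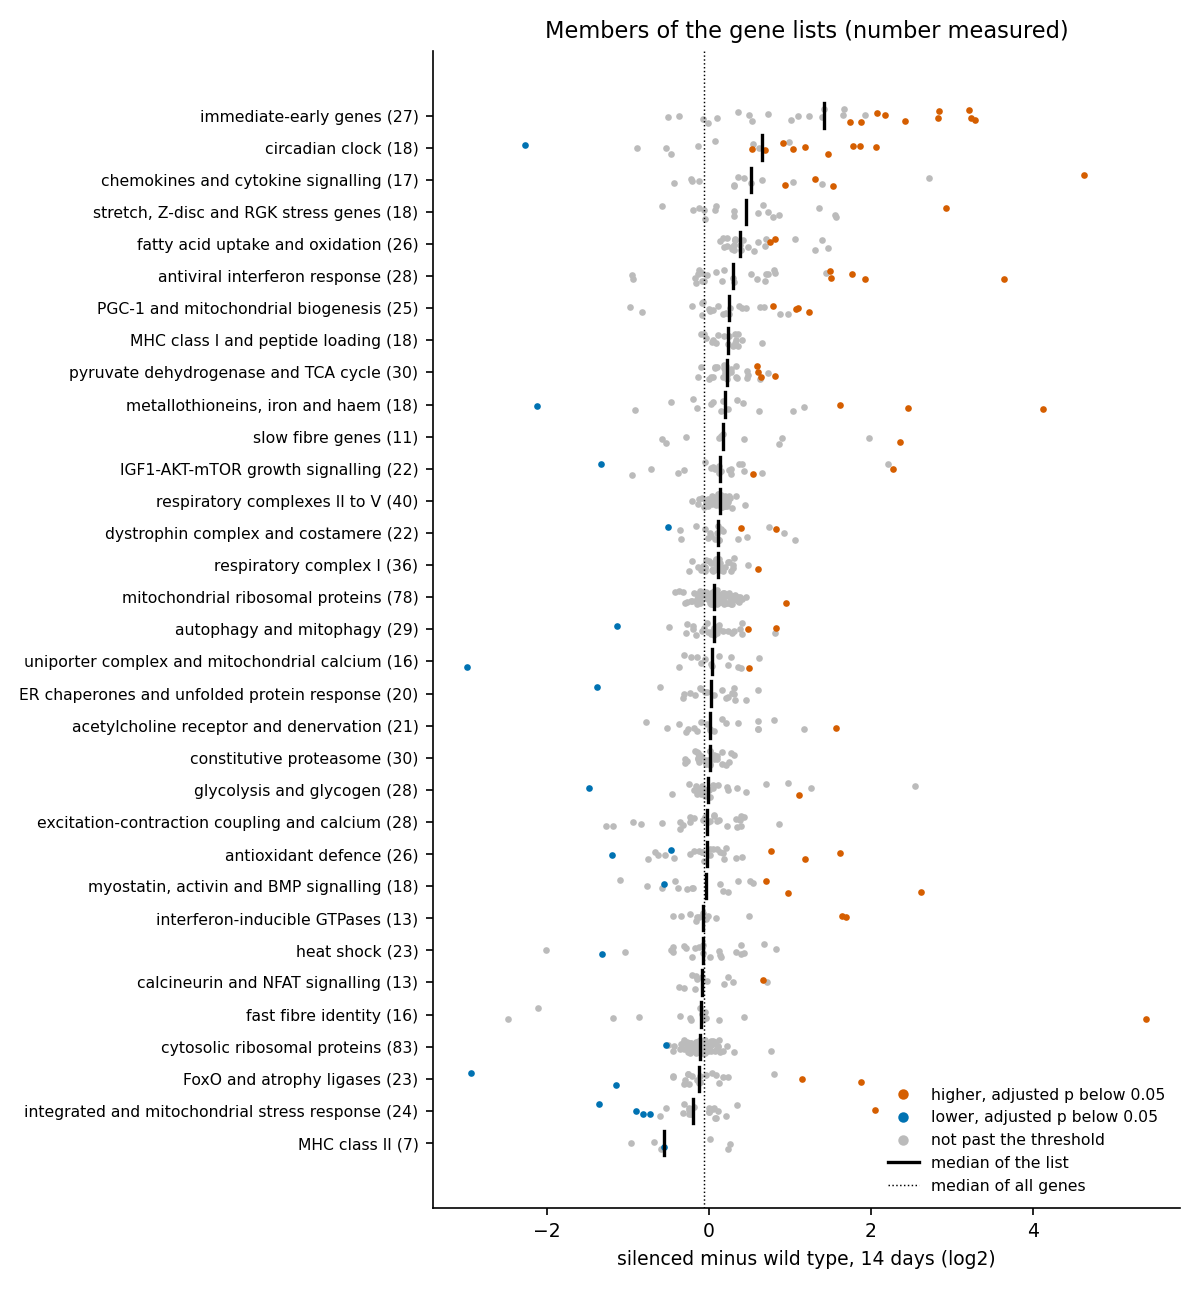
Silenced minus wild type differences at 14 days in log2 units for every measured member of the gene lists, 1 row for each list with the number measured in brackets and lists ordered by their median (bar). Dim members stand at their fitted difference, orange and blue points passed, and the dotted line is the median of all genes at -0.06.

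Few markers of other cells passed, and those that did were lower in silenced fibres, beside 3.32% of all genes higher and 6.80% lower. Of the measured markers, 1 of 11 macrophage and myeloid, 1 of 7 T and NK lymphocyte, 1 of 4 B lymphocyte, 1 of 4 mural and 2 of 6 adipocyte markers fell, and none of the neutrophil, fibroblast, endothelial, Schwann, erythroid, satellite cell or tendon markers passed. The macrophage marker Adgre1 was well above background on no silenced array and all 4 wild type arrays and lower by at least 1.52-fold, a difference that did not pass (adjusted p = 0.0936). Dcn, a fibroblast gene, stood at -3.82, -4.65, -4.78 and -4.68 in silenced and -1.14, -4.79, 1.12 and 2.57 in wild type fibres, and was above background on no silenced array. Its adjusted p was 0.122, and it passed only without wild type fibre 2 (adjusted p = 0.0399), where its fitted difference was -5.34. Summed fibroblast markers were 3.0 to 4.0 in silenced and 2.5 to 14.0 in wild type fibres, the 2 highest being wild type fibres 3 and 4. Myeloid sums of 260.0 to 338.8 in silenced and 312.9 to 325.1 in wild type fibres overlapped. The pericyte gene Cspg4 fell by 1.06, and the adipokine gene Lep was lower by at least 1.25-fold (adjusted p = 0.00631 and 0.00408). The 11 muscle fibre markers summed to 1847.4 to 2410.8 in silenced and 1961.7 to 2225.7 in wild type fibres. The part of other cells in the results was not tested.

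The same contrast in other fibres at 7 days had 1332 higher and 1221 lower genes, the 5.71% and 5.23% given above. Of the 2363 genes that passed at 14 days, 398 also passed at 7 days, 16.8% of the 14-day and 15.6% of the 7-day genes, and 305 of them had the same sign and 93 the opposite sign. Mcu itself was -2.19 at 7 days (adjusted p = 0.00204), and its day 14 minus day 7 difference of -0.79 did not pass (adjusted p = 0.394). Over all genes the difference between days passed for 665 genes with a positive sign (2.85%) and 1084 with a negative sign (4.64%). Abcc9 and Chchd4 were -0.36 and 0.41 at 7 days (adjusted p = 0.198 and 0.179), and their differences between days were 3.16 and 1.34 (adjusted p = 1.75e-08 and 0.00501). Mt2 was 2.59 at 7 days (adjusted p = 0.0216) with a difference between days of 1.53 (adjusted p = 0.341). Myh1, by contrast, did not differ beyond the test at 7 days (0.61, adjusted p = 0.81), and neither did its difference between days (4.78, adjusted p = 0.105).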

How the data were processed

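Per the file headers, each fibre's RNA was hybridised to a 1-colour Agilent array and the deposited intensity values came from Agilent Feature Extraction 10.7.3.1 with probes placed on mm9. The log2 values used here were computed from the authors' deposited processed signal, less each array's 75th percentile over the 59305 spots that are not controls. Spots of 1 probe were averaged into 55681 probes. A probe was kept if its signal cleared background in 3 or more fibres of any of the 8 groups, and a gene took its brightest such probe, which gave 23341 genes. RefSeq accessions named 26425 probes, current symbols 3988 and older synonyms 826, while 24442 probes retained their name in the file. No spot was saturated and no signal was below 0. The submitters' own table of processed intensities, taken to log2 here, was used as an alternative only.

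Groups were compared with limma 3.58.1 in R 4.3.3, in 1 fit of 8 group means over all 30 arrays, with Benjamini-Hochberg adjusted p below 0.05. The number of arrays limits the precision. The script was tested on simulated data. The members and lists were chosen with earlier results of these data known. Named genes were Mcu, the 15 largest rises and falls with a symbol and signal in both groups, the 8 largest bounded rises and falls, up to 10 genes each way that passed against both controls, and up to 4 members of each list by moderated t. Per3, Hlf, Cry2, Nr1d1, Nr1d2, Egr1 and Ddit3, and the genes named without values, were chosen after their values were seen. Fibre numbers did not pair the groups, since the correlations of same-numbered fibres were 0.153, 0.018, 0.168 and 0.157. Alternatives were the background correction, 4 other scalings or value tables, filters on dim probes, probe averaging, array weights, covariates, the 8 arrays alone, a replicate block and each fibre left out. A slide block could not be fitted. No probe was removed as belonging to another sample. Promoter sequences came from RefSeq on GRCm38.p6. A few genes are not reported here.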

Additional observations from a re-analysis of the deposited data

Results flagged for a closer look

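Of 208 groups of 4 fibres examined at 14 days for the named genes, 11 held 1 fibre whose gap to the nearest other exceeded Dixon's 95% critical value of 0.829, and chance flags about 1 in 20 groups. Dbp was at 4.41 in silenced fibre 2, against 4.71 to 4.74 in the other 3. Stk35 was at 2.16 in silenced fibre 1, against 1.43 to 1.53 in the other 3. Adgre1 was at -4.24 in silenced fibre 4, against -3.12 to -2.93 in the other 3. Dcn was at -3.82 in silenced fibre 1, against -4.78 to -4.65 in the other 3. Spint2 was at 2.09 in wild type fibre 1, against 0.38 to 0.53 in the other 3. Espn was at -1.52 in wild type fibre 4, against -0.52 to -0.48 in the other 3. Klf4 was at -4.23 in wild type fibre 2, against -1.69 to -1.38 in the other 3. Junb was at 2.51 in wild type fibre 2, against 1.36 to 1.54 in the other 3. Igtp was at -2.38 in wild type fibre 3, against -2.70 to -2.65 in the other 3. Ppp1r3c was at 4.14 in wild type fibre 2, against 3.28 to 3.42 in the other 3. Trim34a was at -2.13 in wild type fibre 2, against -1.74 to -1.70 in the other 3.

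The silenced minus wild type difference itself differed between 14 and 7 days for 51 of the named genes in limma's test of the difference, with adjusted p below 0.05. Most of these genes were named for their size at 14 days, which favours a larger value there. The day 14 minus day 7 value, in log2 units, was above 0 for 30 genes. These were Egr2 5.16, Fosb 4.47, Per2 4.29, Eid3 4.29, Gstt3 3.94, Lonrf3 3.57, Hes1 3.51, Per3 3.47, Dbp 3.24, Abcc9 3.16, Stk35 3.09, Ppp2r2c 2.91, Ddit3 2.90, Lrp4 2.66 and Hlf 2.24, followed by Aldh9a1 2.20, Syce1 2.15, Irf9 1.87, Lrrcc1 1.56, Acvr2b 1.55, Tef 1.49, Ttn 1.35, Chchd4 1.34, Bhlhe40 1.34, Cry2 1.33, Acvr1b 1.31, Stat3 1.14, Ulk1 1.06, Mrps24 0.86 and Nr1d2 0.74. It was below 0 for 21 genes. These were Cd4 -0.66, Irs1 -1.18, Asb2 -1.37, Cox4i2 -1.47, Cspg4 -1.67, Slc25a25 -1.76, Sik1 -1.96, Mgme1 -1.97, Ppp1r3c -2.17, Trim34a -2.31, Cpeb1 -2.36, Glb1 -2.73, Sstr4 -2.77, Espn -2.81, Rab30 -2.83, Arntl -3.28, Klk1b16 -3.59, Klk1b26 -3.73, Klk1b5 -3.76, Cep250 -3.78 and Tmem14c -5.23. In at least 1 of the 4 groups compared, Arntl, Syce1, Espn, Klk1b16, Hes1, Eid3, Gstt3, Lrrcc1, Cep250, Cox4i2, Trim34a, Per2 and Ppp2r2c were above background on no array, so their values rest on dim signal and their size and order are not read. Tmem14c had the smallest adjusted p of these genes (1.45e-11), with differences of -2.12 at 14 days and 3.11 at 7 days.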

How the results depend on the processing

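Against the 2363 genes that passed between silenced and wild type fibres, 570 passed in a fit of the 8 arrays alone, 1189 with the share of detected probes as a covariate and 840 with Myh4 and Myh1 levels as covariates. Leaving out 1 fibre gave 1351 (without wild type fibre 3) to 2288. Silenced against transfected control, 821 genes, had 435 with myosin covariates and 479 (without silenced fibre 3) to 1003 with 1 fibre left out. Transfected control against wild type, 3743 genes, had 1723 with the detected share and 2494 (without wild type fibre 3) to 3865. The 7-day comparison, 2553 genes, had 4652 with normexp and 871 with the detected share. The difference between days, 1749 genes, had 2884 with normexp, 1153 with no filter, 626 with myosin covariates, and 1102 (without wild type fibre 4) to 2162, with 1117 without wild type fibre 3. With myosin covariates Spint2 turned to -0.26, Pvalb to 0.21 and Cpt2 to -0.053. The causes were not tested, and the smaller fits also had fewer arrays. With a replicate block the counts were 2302, 820, 3690, 2625 and 1766 in the same order; the fibre numbers did not pair the samples, and each fibre correlated best with its own number in 1 of 4 cases. Over the values of single genes, each counted once per setting, 2097 kept their direction and side of the threshold. Another 178 no longer passed, 4 newly passed and 3 changed sign. These were spread unevenly over the settings. With Myh4 and Myh1 levels as covariates 53 of 102 named genes no longer passed and 3 changed sign. In the fit of the 8 arrays alone 37 of 104 no longer passed. Irs1, Ulk1, Lrp4, Ttn, Stat3, Klf4 and Sucla2 were among those that passed in neither. Of the list medians 684 moved little and 42 moved. Signal near background limits dim genes.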
